A study of Mus musculus with 38 samples.

Results

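E14 mouse embryonic stem (ES) cells held for 8 days in MEK inhibitor medium (MEKi/L) were compared with the same cells held for 8 days in serum medium (S/L). The comparison rests on 6 RNA sequencing libraries, 3 of each medium, taken by their labels from the 14 RNA libraries and 38 samples of the series. E14 is an XY line of the 129/Ola strain. In every group the cells grew on gelatin without feeder cells, received leukaemia inhibitory factor (LIF), were first plated in S/L and were moved to their own medium on the next day. MEKi/L was serum-free N2B27 (DMEM/F12 and neurobasal medium with N-2, and B-27 lacking vitamin A) with 1 µM of a MEK inhibitor that the labels spell PD03259010. S/L was DMEM with fetal bovine serum and no inhibitor. Basal medium and inhibitor therefore changed together, and their effects cannot be told apart from these 6 libraries. Where a gene is also set against a serum-free medium, the 3 libraries of GSK3i/L at 8 days were used, which had the same N2B27 with 3 µM of the GSK3 inhibitor CHIR99021 in place of the MEK inhibitor. That second comparison shares the MEKi/L libraries with the first. Levels in 2i/L, N2B27 with both inhibitors at 8 days, are given as values only.

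MEK kinases phosphorylate the ERK kinases, the last kinases of the RAS-RAF-MEK-ERK cascade, which fibroblast growth factor (FGF) receptors switch on. Active ERK induces transcription factors of the ETS, AP-1 and EGR families and also its own inhibitors, the Sprouty and Spred proteins and the dual-specificity phosphatases. In mouse ES cells FGF4 made by the cells themselves drives ERK and prepares them to leave the naive state, and MEK inhibitors are used to hold that state.

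Values are given as RPM from the deposited log2 table. In MEKi/L and 2i/L they were reads scaled to the library total. The S/L and 8-day GSK3i/L libraries instead followed a shared distribution of values. Scaling therefore differed between the media in both comparisons. Its share in the folds and p-values was not tested beyond the rescalings given below. The MEKi/L libraries held 10550000 to 15760000 reads, against about 8120000 to 9740000 in S/L, so that 3 reads, the least taken as detection, stood at 0.23 RPM in MEKi/L and 0.329 RPM in S/L on average. A gene was said to rise or fall where limma gave a Benjamini-Hochberg adjusted p under 0.05 over the 14980 genes tested. The labels speak of biological triplicates and do not say that each was its own culture. The p-values then rest on the spread of these samples alone, which may be technical. All 6 ES cell markers (Pou5f1, Sox2, Nanog, Zfp42, Esrrb and Sall4) were abundant, with summed levels of 4008 to 4112 RPM in MEKi/L and 3043 to 3540.2 RPM in S/L. Of 6 primitive endoderm markers 4 reached 0.5 RPM in each medium and their sum stayed at 6.63 to 7.55 RPM in MEKi/L and 8.32 to 12.4 RPM in S/L. The sum of 5 mesoderm markers was 3.6 to 4.1 RPM in MEKi/L and 1.76 to 4.09 RPM in S/L. The sum of 7 fibroblast markers was 5.5 to 9.39 RPM in MEKi/L, with Dcn and Lum at 0, and 12.1 to 15.4 RPM in S/L, with Lum at 0. Neural markers summed to 83.3 to 139 RPM in MEKi/L, with Neurog2 at 0, and to 89.7 to 103 RPM in S/L, with Neurog2 at 0. Trophoblast markers summed to 62.8 to 77.4 RPM in MEKi/L, with Cdx2 at 0, and to 32.3 to 36.6 RPM in S/L, with Elf5 at 0, and most of both sums was Tfap2c. In such bulk samples fewer cells of a type and less RNA per cell cannot be told apart.

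Across the transcriptome 3917 genes were higher in MEKi/L (26.1% of those tested) and 2201 were lower (14.7%), 40.8% in all, and with a fold of at least 2 these numbers were 2357 (15.7%) and 1453 (9.7%). The median log2 fold change of all genes was 0.17. After centring each library on its median the 2-fold counts were 1856 higher and 1888 lower, after trimmed mean scaling 1918 and 1818, and after quantile normalization 1955 and 1822. The share of higher genes among those called thus moved to between 49.6% and 51.8%, from 61.9% as deposited, and directions of small changes depend on the scale. Counts of list members stand against 26.1% higher and 14.7% lower over all genes. Among the largest rises, A2m, a secreted protease inhibitor, had 216, 125 and 147 RPM in MEKi/L, against 9.37, 5.31 and 6.47 RPM in S/L. Slc13a5, a citrate importer, had 41.3, 42.6 and 41.6 RPM in MEKi/L, against 1.52, 2.78 and 1.39 RPM in S/L. Ckb, the brain-type creatine kinase, had one of the largest gains in RPM, with 948, 853 and 766 RPM in MEKi/L and 170.0, 195 and 179 RPM in S/L. In all 3 genes the libraries of the media did not overlap, and the log2 fold changes were 4.53 ± 0.31, 4.54 ± 0.25 and 2.24 ± 0.18 (SE), with adjusted p at or below 1.0e-06. Among the largest falls, Plac8 had 1.14, 2.81 and 1.61 RPM in MEKi/L, against 166, 116 and 107 RPM in S/L. Myo1f, an unconventional myosin, had 1.14, 1.37 and 1.52 RPM in MEKi/L, against 67.3, 55.1 and 39.4 RPM in S/L. Aass, an enzyme of lysine breakdown, had 2.73, 3.96 and 5.59 RPM in MEKi/L, against 81.1, 47.5 and 66.3 RPM in S/L. These 3 genes fell without overlap, by 6.20 ± 0.59, 5.30 ± 0.49 and 4.02 ± 0.41 on the log2 scale. Against GSK3i/L, 8.64% of genes were at least 2-fold higher and 4.17% lower. Myo1f and Aass were higher in MEKi/L than in GSK3i/L by 2.67 (adjusted p = 0.0014) and 2.98 (adjusted p = 1.6e-04) on the log2 scale, and Plac8 was lower by 2.45 (adjusted p = 0.0098).

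**Figure D1:**
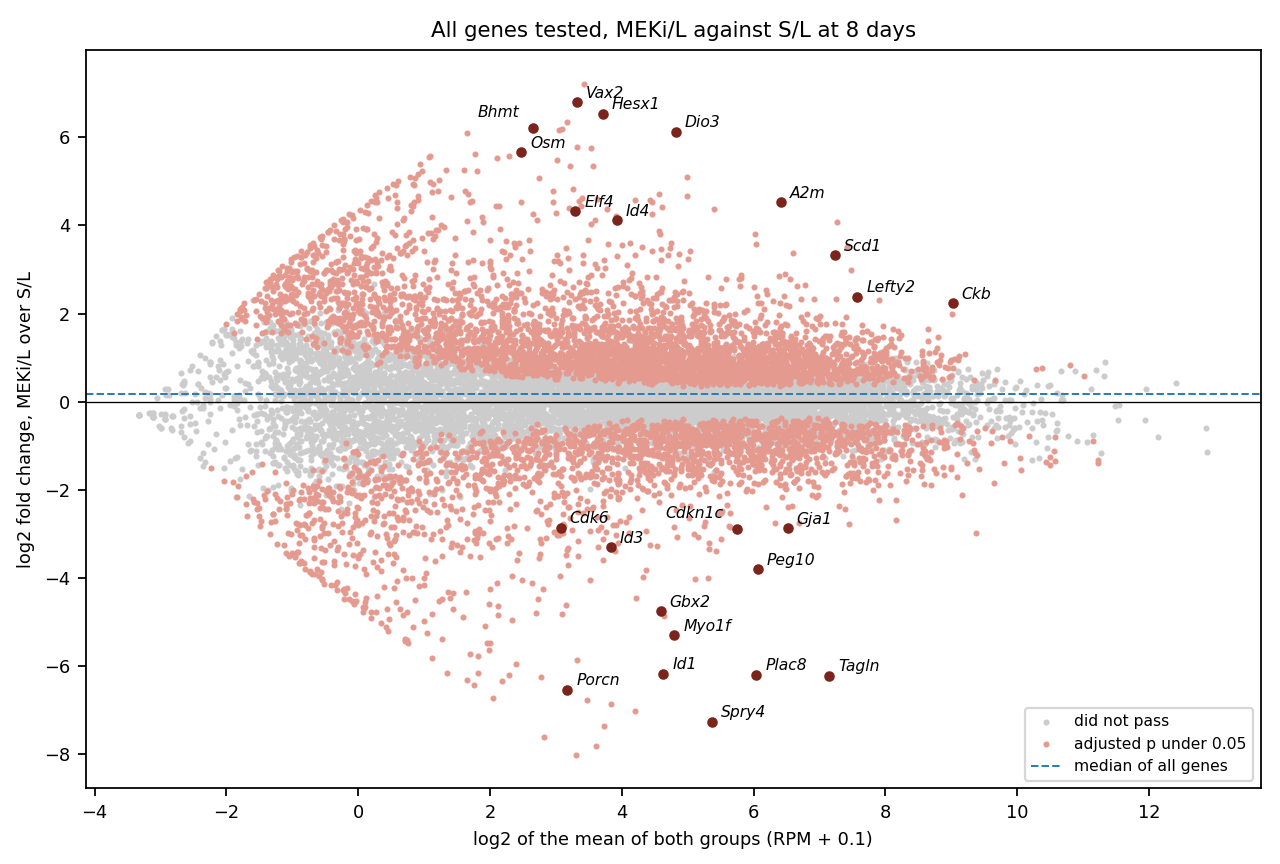
Log2 fold change of MEKi/L over S/L (vertical axis) against the log2 mean level of both media (horizontal axis) for the 14980 genes tested, with red points for adjusted p under 0.05. Spry4, Tagln, Id1 and Plac8 lie among the lowest with changes of -7.27 to -6.18, Hesx1 and Vax2 near the top with 6.54 and 6.80, and the dashed line marks the median of 0.17.

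One technical measure moved with the medium. The mean log2 level of 39 long transcripts minus that of 40 short ones was 0.14, -2.34 and -1.98 in MEKi/L replicates 1 to 3, against -3.38, -3.08 and -2.93 in S/L. All MEKi/L values lay above all S/L values, and MEKi/L replicate 1 stood apart from the other two. Of the long transcripts 25 rose and 1 fell, with a median log2 fold change of 1.21, but without MEKi/L replicate 1 only 13 rose, and without S/L replicate 1 15 did. Of the short transcripts 9 fell and 1 rose, with a median of -0.74, and without MEKi/L replicate 1 only 1 fell (3 without S/L replicate 1, 4 without S/L replicate 2, 5 without S/L replicate 3 and 16 without MEKi/L replicate 2). Among short, abundant transcripts, Rps24, a ribosomal protein gene, had 566, 2028 and 1713 RPM in MEKi/L, against 4239, 3027 and 2788 RPM in S/L. Its log2 fold change of -1.40 (adjusted p = 0.04) became -0.82 (adjusted p = 0.2) without MEKi/L replicate 1, and it did not pass without any of the S/L libraries (adjusted p = 0.062 to 0.13). With the score as a covariate its change was -0.10 (adjusted p = 0.65). How far length or RNA quality shaped other genes was not tested gene by gene beyond the fit with this score as a covariate and the fits without single libraries. Where the call of a gene chosen by the stated naming rules failed with this covariate or without a library, the value is given beside it. For genes marked as named after their values were seen, these fits are not reported here. Reads of genes that overlap on opposite strands could not be told apart, since the use of strand in counting is not given in the sources used here. Among the genes named this concerns Nf1, Rasa1, Dusp10, Fgf1, Fgf10, Map2k1, Tagln, Pcsk6, Gbx2, Tbx3, Dnmt3a, Dnmt3b, Dnmt3l, Grhl2, Vax2, Tdg, Gadd45a, Igf2, Cdk6, Col4a1, Bhmt, Dmgdh, Fdft1 and Slc13a5.

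**Figure D2:**
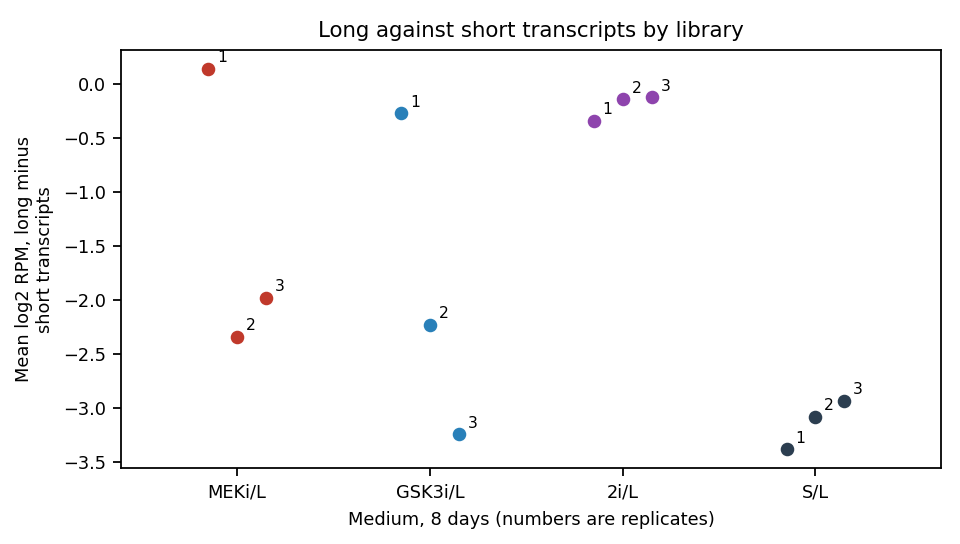
Mean log2 RPM of 39 long transcripts minus that of 40 short ones (vertical axis) for each library at 8 days, by medium. MEKi/L replicate 1 stands at 0.14 and the other MEKi/L libraries at -2.34 and -1.98, all above the S/L libraries, which lie between -3.38 and -2.93.

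The genes of the pathway that MEK belongs to moved in both directions. Of 17 FGF ligands and receptors tested, 5 rose and 5 fell (against 26.1% and 14.7% of all genes), with a median log2 fold change of -0.11. The number that rose was 3 without MEKi/L replicate 1, without S/L replicate 1 or with the length score as a covariate. The number that fell was 3 without MEKi/L replicate 2. Fgf4, the ligand that drives ERK in ES cells, had 416, 351 and 327 RPM in MEKi/L, against 101, 154 and 143 RPM in S/L. It was named after its values were seen, and rose without overlap by 1.47 ± 0.23 (adjusted p = 2.0e-04). Fgf10, a ligand of FGF receptor 2 variants in epithelia, had 20.2, 10.6 and 14 RPM in MEKi/L and 0.76, 0.75 and 0.71 RPM in S/L, a change of 4.29 ± 0.26 (adjusted p = 9.8e-08). Fgf10 was also higher than in GSK3i/L, by 1.81 (adjusted p = 2.4e-04). Fgf17 fell by 1.67 ± 0.21 to 9.01 ± 0.71 RPM in MEKi/L, against 29.2 ± 6.84 RPM in S/L (SD, n = 3 each, adjusted p = 3.4e-05). Fgf1 had 0.95, 0.14 and 0.19 RPM in MEKi/L, against 7.86, 5.5 and 8.41 RPM in S/L, and changed by -4.59 ± 0.64 (-5.43 to -4.07 when single libraries were left out). Neither Fgf17 nor Fgf1 passed against GSK3i/L (adjusted p = 0.73 and 0.94).

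Of 29 genes of the RAS-RAF-MEK-ERK cascade 9 rose and 3 fell (6 with the length score as a covariate), against 26.1% and 14.7% of all genes. The median was 0.18, against 0.17 for all genes, and 1 of the 29 passed the level filter through one of the media only. Map2k1, which encodes MEK1 itself, rose by 1.13 ± 0.24 (adjusted p = 0.0022), with 235, 158 and 152 RPM in MEKi/L and 66.2, 92.9 and 86.6 RPM in S/L. Sos1, the exchange factor that loads RAS with GTP, rose by 1.32 ± 0.24 (adjusted p = 6.0e-04). Lamtor3, which encodes the MEK scaffold MP1, fell by 1.20 ± 0.29 (adjusted p = 0.0054). None of these passed against GSK3i/L, where Map2k1 differed by 0.43 (adjusted p = 0.26), Sos1 by 0.46 (adjusted p = 0.21) and Lamtor3 by -0.54 (adjusted p = 0.25). Mapk3, which encodes an ERK kinase and was chosen here after its values were seen, did not pass, with a change of -0.33 (adjusted p = 0.28).

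The inhibitors that ERK induces against itself were mostly lower. Of 19 tested, 10 fell (against 14.7% of all genes) and 2 rose, and the median log2 fold change was -1.23. The 3 MEKi/L values lay below the 3 S/L values for 11 members, against 21.5% of all genes, and above them for 2, against 33.7%. Spry4, a Sprouty protein that blocks signalling from receptors to RAS, had 1.21, 0.58 and 0.19 RPM in MEKi/L, against 77.9, 56.6 and 110.0 RPM in S/L. It was the gene of the list with the largest fall, with a change of -7.27 ± 0.66 (adjusted p = 2.5e-06; -7.89 to -6.56 when single libraries were left out). Spry1 had 4.63, 3.38 and 3.13 RPM in MEKi/L, against 13.5, 16.2 and 20.8 RPM in S/L, and Spred1, which recruits a RAS-inactivating protein, had 22.1, 16.5 and 16.7 RPM in MEKi/L, against 81.7, 66.4 and 85.1 RPM in S/L. Both fell without overlap, by 2.18 ± 0.28 and 2.08 ± 0.19. Among the phosphatases, Dusp6, which dephosphorylates ERK in the cytoplasm, had 20.3, 16.4 and 12.2 RPM in MEKi/L, against 50.6, 42.5 and 70.5 RPM in S/L, a fall of 1.74 ± 0.27 (adjusted p = 1.9e-04). Dusp4, its nuclear relative, fell by 2.78 ± 0.39 to 2.17 ± 0.40 RPM in MEKi/L, against 14.8 ± 2.56 RPM in S/L. Dusp9 fell by 2.85 ± 0.27, with 14.1, 13.4 and 9.19 RPM in MEKi/L and 70.8, 99.6 and 91.3 RPM in S/L. Spry2 (-1.23), Spred3 (-1.33), Dusp5 (-1.82) and Dusp2 (-1.93) also fell, and Dusp2, near the detection limit, did not pass without MEKi/L replicate 1 (adjusted p = 0.18), without S/L replicate 1 (0.089), without S/L replicate 3 (0.12) or with the length score as a covariate (-1.25, adjusted p = 0.27).

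Not every inhibitor of the pathway was low. Dusp14 had 14.1, 14.5 and 21.8 RPM in MEKi/L, against 9.98, 5.6 and 6.47 RPM in S/L, a rise of 1.21 ± 0.27 (adjusted p = 0.0029). Nf1, the RAS-inactivating neurofibromin gene and a long transcript, rose by 1.36 ± 0.30 (adjusted p = 0.0032), and by 1.02 (adjusted p = 0.015) without MEKi/L replicate 1. Spred2, Dusp1, Dusp7, Dusp10, Il17rd, Lztr1 and Rasa1 did not pass, with changes between -0.32 and 0.57. Dusp7 passed as higher without S/L replicate 3 (0.83, adjusted p = 0.043), Lztr1 as lower under the 3 rescalings, and Spred2 and Il17rd as lower with the length score as a covariate.

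Set against GSK3i/L, 6 members were lower (against 5.65% of all genes) and 1 was higher (against 12.2%), with a median of -0.49. Spry4 differed by -6.73 (adjusted p = 8.9e-06), Spry1 by -1.99 (2.1e-04), Spred1 by -2.07 (6.0e-06), Spred3 by -1.01 (0.011), Dusp4 by -2.75 (1.8e-04) and Dusp6 by -1.65 (5.6e-04). Dusp9 did not pass against GSK3i/L, for its level there was 14.7 ± 3.88 RPM (difference -0.26, adjusted p = 0.6), and the same held for Dusp5 (0.10, adjusted p = 0.88), Dusp2 (1.44, adjusted p = 0.19) and Spry2 (-0.58, adjusted p = 0.07). In 2i/L, which holds the MEK inhibitor too, Spry4 stood at 1 RPM, Spry1 at 2.61 RPM, Dusp4 at 2.17 RPM and Dusp6 at 8.7 RPM.

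**Figure D3:**
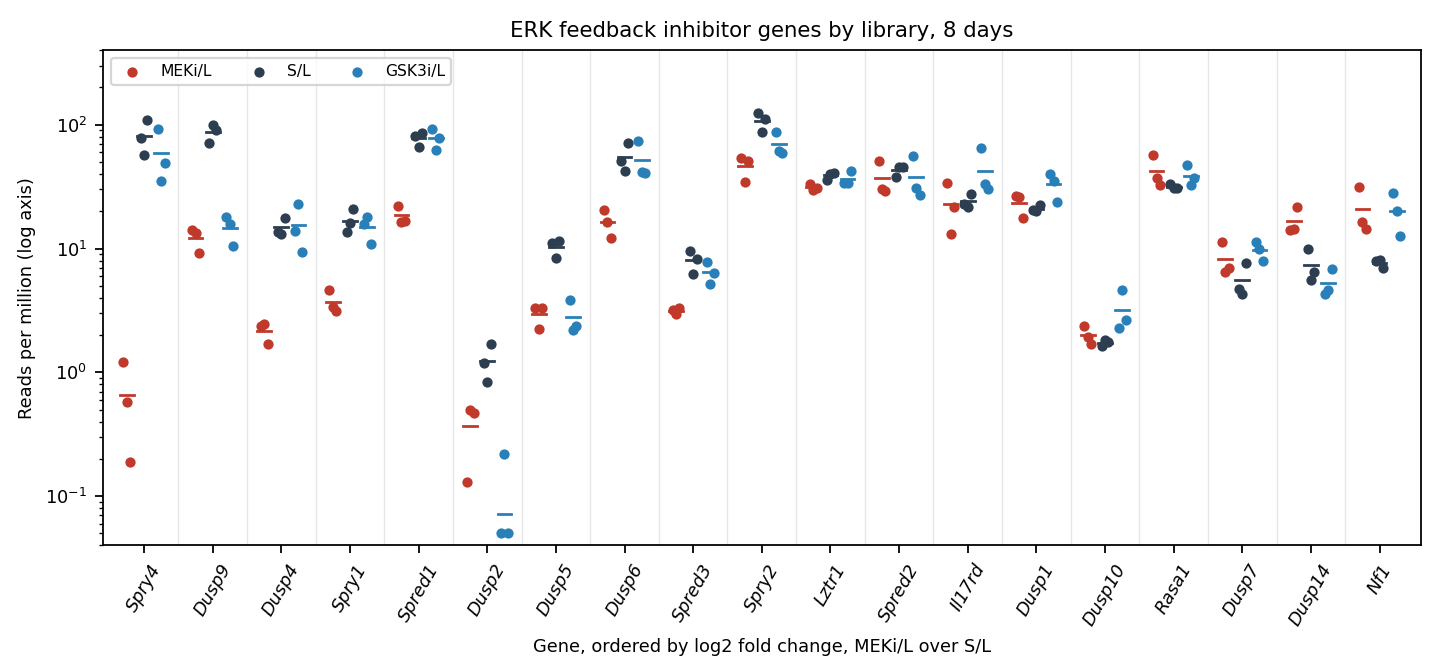
RPM on a log axis of 19 ERK feedback inhibitor genes in each library of MEKi/L, S/L and GSK3i/L at 8 days, with short lines at the means (values of 0, seen in Dusp2, are drawn at the foot). Spry4 lies at 0.19 to 1.21 RPM in MEKi/L and 56.6 to 110.0 RPM in S/L, while Dusp9 is low in MEKi/L and in GSK3i/L, at means of 12.2 and 14.7 RPM, and at 87.2 RPM in S/L.

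Of 26 transcription factors that ERK is known to induce, 7 rose and 6 fell, against 26.1% and 14.7% of all genes, with a median of 0.04. Egr1, an immediate early gene, had 1.02, 0.36 and 0.38 RPM in MEKi/L, against 7.45, 11 and 19.1 RPM in S/L, and fell by 4.49 ± 0.73 (adjusted p = 3.0e-04). Fosl2, an AP-1 subunit, had 0.38, 0.43 and 0.66 RPM in MEKi/L, against 3.56, 3.32 and 7.23 RPM in S/L, and fell by 3.21 ± 0.42 (adjusted p = 5.5e-05). Both were also lower than in GSK3i/L, by 2.41 (adjusted p = 0.033) and 2.48 (adjusted p = 8.2e-04). Elf4, an ETS-family factor, went the other way, with 24.1, 16.8 and 14.5 RPM in MEKi/L and 0.66, 0.84 and 1.29 RPM in S/L. Its rise was 4.33 ± 0.41 (adjusted p = 3.8e-06), and against GSK3i/L, at 5.91 ± 2.75 RPM, it was higher by 1.75 (adjusted p = 0.0085). Myc had 8.82, 2.16 and 3.7 RPM in MEKi/L, against 45.2, 28.9 and 48.8 RPM in S/L, a fall of 3.27 ± 0.56. Against GSK3i/L, Myc differed by -1.67 (adjusted p = 0.052), or adjusted p = 0.0078 with the replicate number as a block. Of 31 genes of ribosome biogenesis linked to MYC in other systems, 6 fell and 1 rose, with a median near 0, and with the length score as a covariate 13 fell. Odc1, the ornithine decarboxylase that MYC activates, fell by 0.86 ± 0.16 to 249, 223 and 248 RPM in MEKi/L, against 419, 437 and 451 RPM in S/L (adjusted p = 8.6e-04). Mrto4 fell by 1.23 ± 0.27 (adjusted p = 0.0027). Neither Odc1 nor Mrto4 passed against GSK3i/L (adjusted p = 0.15 and 0.65).

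Serum response factor (SRF) binds the CArG box and, with its actin-regulated MRTF partners or ERK-regulated ternary complex partners, drives smooth-muscle actin genes and immediate early genes, and serum is its classical stimulus. Of 28 SRF and YAP target genes tested, 12 fell and 4 rose, with a median of -0.32. Only 1 rose without MEKi/L replicate 1, and 2 without S/L replicate 2 or with the length score as a covariate. Tagln, which encodes the actin-binding protein transgelin, had 3.49, 6.33 and 1.99 RPM in MEKi/L, against 382, 163 and 291 RPM in S/L, and fell by 6.22 ± 0.44 (adjusted p = 3.5e-07). Tagln overlaps Pcsk7 on the opposite strand. Acta2, smooth-muscle actin, had 1.59, 2.01 and 1.04 RPM in MEKi/L, against 29.7, 11.7 and 13.8 RPM in S/L, a fall of 3.50 ± 0.37 (adjusted p = 8.8e-06). Cnn1, the gene for calponin, fell by 4.13 ± 0.62 (adjusted p = 1.7e-04) to 0.69 ± 0.27 RPM in MEKi/L, against 11.5 ± 2.30 RPM in S/L. Thbs1, a matrix glycoprotein and YAP target, had 0.7, 0.65 and 0.95 RPM in MEKi/L, against 8.33, 6.28 and 14.5 RPM in S/L, and fell by 3.60 ± 0.37. No library of one medium overlapped the other for any of these 4 genes. Against GSK3i/L, Tagln was lower by 4.00 (adjusted p = 2.2e-05), Acta2 by 4.58 (1.6e-06) and Thbs1 by 5.71 (2.5e-07), while Cnn1 did not pass (-0.85, adjusted p = 0.42). Actb, the beta-actin gene, rose by 0.83 ± 0.27 (adjusted p = 0.023), with 2720.1, 1996 and 2107 RPM in MEKi/L and 989, 1329.6 and 1549.7 RPM in S/L, but it did not pass after median centring (adjusted p = 0.068), after trimmed mean scaling (0.055), without MEKi/L replicate 1 (0.085), without S/L replicate 1 (0.11) or with the length score (0.13).

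Promoter sequence was read for the falling members of these lists from the RefSeq windows (mouse build GRCm38.p6, 250 bases before to 50 bases after the annotated start). The motifs searched on both strands were the CArG box of SRF, the ETS site CCGGAAG and the BMP-SMAD site GGCGCC. The CArG box was taken in its strict form only, CCWWWWWWGG with W for A or T. Near matches were not counted, such as ccctatatgg and ccttgtttgg in the Acta2 window, so a CArG-like element can be present without being listed. A CArG box stood in 1.63% of all 32851 promoters, CCGGAAG in 8.86% and GGCGCC in 11.9%. Of the 12 falling SRF and YAP members 9 had a promoter in the table, and 2 of these, Actg1 and Myl9, held a CArG box in the strict form. Of the 10 falling ERK feedback genes 7 had a promoter in the table, and only Dusp5 held a CArG box in the strict form. CCGGAAG was found in 0 of the promoters of either list and GGCGCC in 2 and 3. A match is a description of these letters, not a bound site, and no match says only that they are not in this window. The promoters with a CArG box are printed from 250 bases before the start up to it, on the strand of the gene, with capitals for the CArG and GGCGCC matches. In Actg1 the CArG box began 90 bases and GGCGCC 114 bases before the start (chr11:120348496-120348745, minus strand). In Myl9 the CArG box began 161 bases before the start (chr2:156775214-156775463, plus strand). In Dusp5 a pair of adjoining CArG boxes began 82 and 72 bases before the start and GGCGCC 231 bases before it (chr19:53528895-53529144, plus strand).
Actg1: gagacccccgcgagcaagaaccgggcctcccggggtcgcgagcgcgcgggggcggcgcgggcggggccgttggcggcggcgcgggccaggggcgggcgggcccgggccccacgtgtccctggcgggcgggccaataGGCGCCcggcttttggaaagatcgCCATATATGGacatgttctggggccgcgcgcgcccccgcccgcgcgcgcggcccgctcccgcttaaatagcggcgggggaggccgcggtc
Myl9: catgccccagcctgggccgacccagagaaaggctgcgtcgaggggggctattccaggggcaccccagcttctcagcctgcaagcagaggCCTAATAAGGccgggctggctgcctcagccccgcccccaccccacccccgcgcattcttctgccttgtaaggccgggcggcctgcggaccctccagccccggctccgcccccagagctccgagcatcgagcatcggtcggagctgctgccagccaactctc
Dusp5: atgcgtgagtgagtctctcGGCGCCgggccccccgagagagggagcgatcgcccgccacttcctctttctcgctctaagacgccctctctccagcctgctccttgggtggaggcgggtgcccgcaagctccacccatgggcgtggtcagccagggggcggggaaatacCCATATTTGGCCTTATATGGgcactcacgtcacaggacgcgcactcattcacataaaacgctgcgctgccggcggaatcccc

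The genes with these promoters were named for their sequence after their values were seen, and since only falling members were searched, their direction says nothing about the motif. Actg1, gamma-actin, had 82.4, 65.7 and 91.8 RPM in MEKi/L, against 137, 169 and 191 RPM in S/L, a change of -1.05 ± 0.18 (adjusted p = 4.7e-04). Myl9, a myosin regulatory light chain, had 3.43, 2.95 and 3.22 RPM in MEKi/L, against 11.6, 6.83 and 12.4 RPM in S/L, a change of -1.64 ± 0.36 (adjusted p = 0.0029). Dusp5, a nuclear ERK phosphatase, had 3.3, 2.23 and 3.32 RPM in MEKi/L, against 11.1, 8.42 and 11.4 RPM in S/L. All 3 genes were lower in every MEKi/L library than in any S/L library.

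Inhibitor-of-differentiation (ID) proteins, which block basic helix-loop-helix factors and are induced by bone morphogenetic protein (BMP) in serum, did not move as 1 family. Id1 had 1.46, 0.36 and 0.57 RPM in MEKi/L, against 47.6, 45.1 and 53.1 RPM in S/L (-6.18 ± 0.49, adjusted p = 8.6e-07). Id3 had 5.27, 1.73 and 1.8 RPM in MEKi/L, against 28.4, 27.8 and 19.7 RPM in S/L (-3.30 ± 0.61, adjusted p = 8.2e-04). Id2 had 8.57, 15.8 and 13 RPM in MEKi/L, against 39.8, 44.1 and 39 RPM in S/L (-1.76 ± 0.28, adjusted p = 2.8e-04). These 3 genes were low in all MEKi/L libraries with no overlap. Id4 was the exception, with 35.6, 26.1 and 24 RPM in MEKi/L and 1.62, 1.89 and 1.39 RPM in S/L, a rise of 4.12 ± 0.21 (adjusted p = 4.7e-08). Against GSK3i/L the family divided again, for Id1 (-3.43, adjusted p = 2.2e-04) and Id3 (-4.24, adjusted p = 2.3e-04) were lower, while Id2 (1.49, adjusted p = 0.0018) and Id4 (1.62, adjusted p = 1.1e-04) were higher. Over the whole list of BMP, SMAD and ID genes 8 of 25 rose and 5 fell, with a median of 0.64, and 4 of the 25 passed the level filter through one of the media only. Rgma, a BMP co-receptor, rose by 4.12 ± 0.25, with 27.9, 19.4 and 20.9 RPM in MEKi/L and 1.3, 1.4 and 1.19 RPM in S/L. Bmp4, named after its values were seen, fell by 2.32 ± 0.40 to 3.93, 1.87 and 1.9 RPM in MEKi/L, against 15.2, 9.82 and 11.5 RPM in S/L.

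Nodal and activin signal through SMAD2 and SMAD3 and, in ES cells, induce their own antagonists Lefty1 and Lefty2. Of 22 genes of this group 7 rose and 5 fell, with a median of 0.18 (3 fell without S/L replicate 1 or without S/L replicate 2). Lefty2 had 502, 240.1 and 223 RPM in MEKi/L, against 77.7, 54.1 and 45.2 RPM in S/L, a rise of 2.38 ± 0.31 (adjusted p = 5.0e-05). Lefty1, its neighbour and relative, named after its values were seen, fell by 1.07 ± 0.29 to 97.1, 56.3 and 48 RPM in MEKi/L, against 131, 195 and 95.2 RPM in S/L (adjusted p = 0.01), and its libraries overlapped. Against GSK3i/L both were higher, Lefty2 by 1.71 (adjusted p = 0.0014) and Lefty1 by 1.78 (adjusted p = 6.3e-04). Smad3 rose by 2.57 ± 0.31, with 57.2, 31.4 and 35.5 RPM in MEKi/L and 4.16, 8.51 and 8.62 RPM in S/L. Pcsk6, a convertase that cleaves Nodal precursor, rose by 2.61 ± 0.29, with 162, 81 and 90.4 RPM in MEKi/L and 18.4, 17.1 and 16.8 RPM in S/L. Lefty2, Smad3 and Pcsk6 were highest in MEKi/L replicate 1, and without it their changes were 2.01, 2.31 and 2.30, with adjusted p of 1.3e-04, 1.6e-04 and 3.7e-05. Inhbb, an activin subunit, fell by 2.74 ± 0.53 to 5.39, 2.45 and 5.88 RPM in MEKi/L, against 32.3, 24.2 and 29.7 RPM in S/L.

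**Figure D4:**
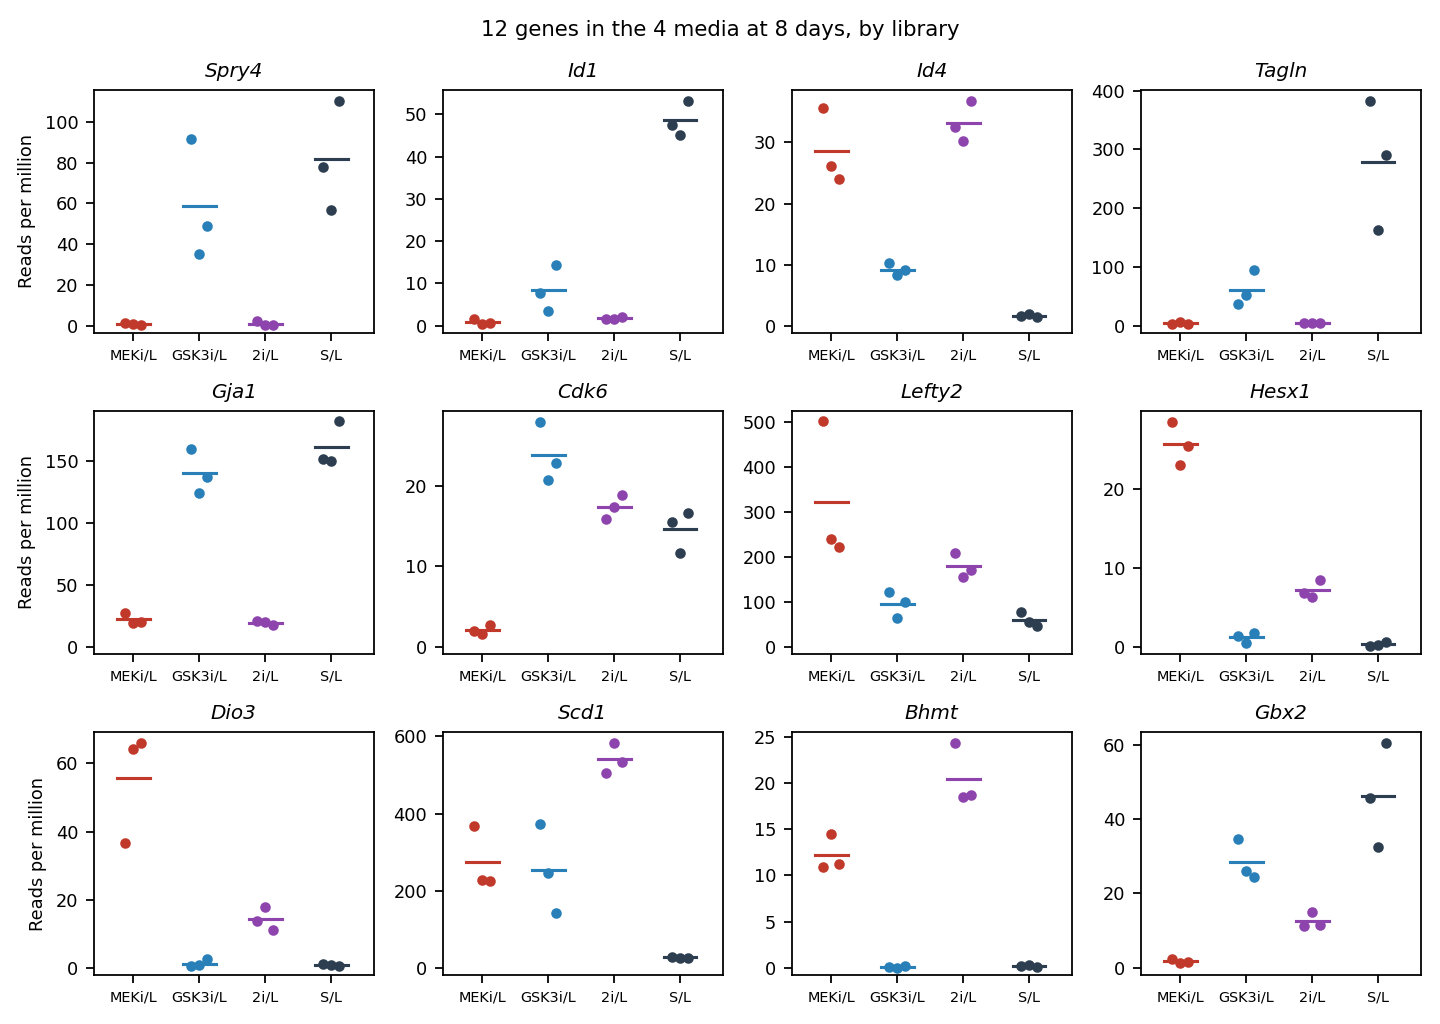
RPM of 12 genes in each of the 3 libraries of MEKi/L, GSK3i/L, 2i/L and S/L at 8 days, with lines at the means. Spry4, Id1, Tagln and Gja1 are low in both media that hold the MEK inhibitor, Cdk6 is low in MEKi/L only (2.05 RPM), and Hesx1 and Dio3 are highest in MEKi/L, at 25.6 and 55.6 RPM.

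Genes of naive pluripotency were mostly higher. Of 17 tested, 12 rose and 1 fell, against 26.1% and 14.7% of all genes, with a median of 1.09. Nanog, a core factor of the naive network named after its values were seen, had 718, 876 and 827 RPM in MEKi/L, against 349, 384 and 399 RPM in S/L, a rise of 1.09 ± 0.18 (adjusted p = 4.1e-04). Tbx3 had 342, 199.5 and 223 RPM in MEKi/L, against 48.1, 58.3 and 43.7 RPM in S/L (2.32 ± 0.28). Prdm14, a repressor of the de novo methyltransferase genes, had 64.5, 35.8 and 39 RPM in MEKi/L, against 10.1, 9.19 and 6.81 RPM in S/L (2.38 ± 0.25). The libraries did not overlap for these 3 genes. Prdm14 was also higher than in GSK3i/L, by 1.28 (adjusted p = 0.0024), and Nanog by 0.83 (adjusted p = 0.0055), while Tbx3 differed by 0.82 with adjusted p = 0.055, or 0.044 with the replicate number as a block. Dppa3, a naive marker that displaces UHRF1 from chromatin, was the member that fell, with 8.82, 12.4 and 10.1 RPM in MEKi/L and 24.1, 24.3 and 23 RPM in S/L (-1.20 ± 0.26, adjusted p = 0.0028). In all 2 members fell without MEKi/L replicate 1, under the 3 rescalings and with the length score as a covariate.

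Of 23 genes of the LIF pathway, which keeps STAT3 active, 10 rose (6 with the length score as a covariate) and 3 fell, with a median of 0.61. Of the 23, 2 passed the level filter through one of the media only. Tfcp2l1, a STAT3 target of the naive network, had 559, 297 and 346 RPM in MEKi/L, against 57.5, 95.7 and 85.3 RPM in S/L, a rise of 2.31 ± 0.35. Gbx2, another STAT3 target, had 2.28, 1.22 and 1.61 RPM in MEKi/L, against 45.7, 32.5 and 60.4 RPM in S/L, a fall of 4.76 ± 0.26 (adjusted p = 5.5e-08). These targets of 1 factor thus stood on opposite sides in every library, and against GSK3i/L only Gbx2 passed (-4.08, adjusted p = 2.5e-07, with -0.32 and adjusted p = 0.61 for Tfcp2l1). Osm, the oncostatin M ligand, had 9.96, 9.71 and 12.3 RPM in MEKi/L, against 0.092, 0.31 and 0.33 RPM in S/L, and Il6ra had 8.25, 5.25 and 4.74 RPM in MEKi/L, against 0.34, 0.38 and 0.52 RPM in S/L. They rose by 5.66 ± 0.37 (5.06 to 5.98 when single libraries were left out) and 3.86 ± 0.35, and Osm lay at the detection limit in S/L. Neither differed from GSK3i/L past the threshold (adjusted p = 0.24 and 0.36).

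Other pluripotency genes were split. Of 16 tested, 5 fell and 3 rose, with a median of -0.39, but 3 fell without S/L replicate 1 or without S/L replicate 3. Only 1 rose without MEKi/L replicate 1, without S/L replicate 1, after median centring or with the length score as a covariate. Dppa2 and Dppa4, which act as a pair on bivalent and germline promoters, fell by 2.34 ± 0.28 and 1.55 ± 0.19. Dppa2 had 19.7, 12.9 and 15.1 RPM in MEKi/L, against 98.6, 65.5 and 76.4 RPM in S/L. Dppa4 had 48.9, 58.3 and 53.5 RPM in MEKi/L, against 164, 145 and 159.8 RPM in S/L. Lin28b, an inhibitor of let-7 processing, fell by 1.82 ± 0.22 to 8.69, 6.04 and 8.25 RPM in MEKi/L, against 27, 21.9 and 31.9 RPM in S/L, and was also lower than in GSK3i/L by 1.43 (adjusted p = 3.3e-04). Dppa2 differed from GSK3i/L by -0.60 with adjusted p = 0.17, or 0.04 with the replicate number as a block, and Dppa4 by -0.41 (adjusted p = 0.16).

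Genes of formative and primed pluripotency, the states after naive, mostly fell. Of 24 tested, 15 fell and 2 rose, against 14.7% and 26.1% of all genes, and the median was -1.58. Tcf15 had 8.19, 7.12 and 6.35 RPM in MEKi/L, against 72.2, 74.4 and 72.1 RPM in S/L (-3.34 ± 0.27, adjusted p = 9.8e-07). Grhl2, a factor that opens epithelial enhancers in formative cells, had 2.98, 2.37 and 4.08 RPM in MEKi/L, against 22.8, 17.7 and 26.7 RPM in S/L (-2.85 ± 0.35, adjusted p = 2.8e-05). Igfbp3 had 9.33, 4.96 and 5.78 RPM in MEKi/L, against 38.6, 18.8 and 34.1 RPM in S/L (-2.18 ± 0.31). Each library in MEKi/L was below each in S/L for these genes. The 2 that rose were Fst and Otx2, named after their values were seen. Otx2, which directs the exit from the naive state and later the forebrain, had 140.4, 127 and 123 RPM in MEKi/L, against 54, 29.5 and 38.3 RPM in S/L, a rise of 1.72 ± 0.29 (adjusted p = 3.9e-04). Against GSK3i/L, where it averaged 11.3 RPM, Otx2 was higher by 3.59 (adjusted p = 1.6e-06). In that comparison the list was mixed, with 5 members higher and 4 lower, against 12.2% and 5.65% of all genes. Tcf15 (-0.48, adjusted p = 0.27), Grhl2 (-0.85, adjusted p = 0.11, or 0.032 with the replicate number as a block) and Igfbp3 (0.29, adjusted p = 0.61) did not pass there.

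Otx2 also belongs to the list of forebrain and eye field factors and is counted again there. Of 20 such genes 12 passed the level filter, 8 of them through one of the media only, so the count of 9 higher and 2 lower is a description. Hesx1, a homeobox repressor of the anterior neural plate, had 28.4, 23 and 25.4 RPM in MEKi/L, against 0.15, 0.21 and 0.61 RPM in S/L. Vax2, a homeobox gene of the ventral eye, had 20.5, 21.2 and 17 RPM in MEKi/L, against 0.24, 0.14 and 0.15 RPM in S/L, and overlaps Vax2os2 on the opposite strand. Both were at or near the detection limit in S/L and rose by 6.54 ± 0.50 (6.13 to 7.13 when single libraries were left out) and 6.80 ± 0.27. Vax2os1 had 3.55, 7.34 and 7.3 RPM in MEKi/L and 0 reads in S/L, at least 18-fold higher against 3 reads per library. Lmx1b had 8.82, 5.25 and 5.5 RPM in MEKi/L, against 0, 0.31 and 0 RPM in S/L. Hesx1, Vax2 and Lmx1b were also higher than in GSK3i/L, by 4.63 (adjusted p = 1.9e-05), 2.55 (1.9e-05) and 4.18 (8.6e-05). Pax6, the eye selector gene, named after its values were seen, was one of those that fell. It had 14.4 to 17.8 RPM in MEKi/L and 29.2 to 33.1 RPM in S/L (-1.04). Gsc, a homeobox gene of the gastrula organizer, had 6.98, 10.8 and 6.92 RPM in MEKi/L, against 0.15, 0.21 and 0.15 RPM in S/L. Its S/L values lay below the detection limit. Gsc was higher than in GSK3i/L by 4.24 (adjusted p = 9.9e-07). It belongs to a separate list of primitive streak and mesoderm genes. Of 11 of these tested, 2 rose and 2 fell, with a median of -0.33. Of the 11, 4 passed the level filter through one of the media only. Those that fell were T and Cdx1, both at low levels, and 0 fell with a filter at 1 RPM. T did not pass without MEKi/L replicate 1 (adjusted p = 0.13), without S/L replicate 1 (0.16) or with the length score as a covariate (0.14). Nor did T pass with log2(RPM + 0.5) (0.12), with 6 libraries only (0.092) or with the replicate block (0.06).

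The two-cell-like program, a rare state of serum cultures marked by Zscan4, was at or near 0 reads in MEKi/L for the genes named here. Of 16 genes of this list that the table holds, 9 passed the filter, 8 of them through S/L only, and all 9 were lower, with a median of -4.48, or -3.46 with the 5 genes at 0 reads in MEKi/L at their bounds. The filter largely fixed this direction, and the count is a description. Zscan4d had 0.19, 0 and 0 RPM in MEKi/L, which is 3 reads in all, against 33.8, 23.2 and 15.5 RPM in S/L. Zscan4f had 0 reads in MEKi/L, against 4.97, 2.36 and 2.07 RPM in S/L, at least 13-fold lower, and Tmem92 had 0 reads, against 2.36, 3.19 and 2.07 RPM in S/L, at least 11-fold lower. The Zscan4 genes are near-identical copies, and how their shared reads were counted is not given in the sources used here. Their levels in GSK3i/L were also near 0, at 0.43 RPM for Zscan4d, and none of these passed against it.

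Of 24 Wnt targets, feedback genes and secretion genes, 9 fell (5 with a filter at 1 RPM) and 5 rose, with a median of -0.33. Only 3 rose without MEKi/L replicate 1, without S/L replicate 3 or under any of the 3 rescalings. The same held with the length score as a covariate and without trend and robust variances. Of the 24, 6 passed the filter through one of the media only. Porcn, which attaches the lipid that Wnt proteins need for secretion, had 0.51, 0 and 0.19 RPM in MEKi/L, against 23.2, 15.1 and 14.5 RPM in S/L, and changed by -6.54 ± 0.56 (-7.28 to -5.79 when single libraries were left out). Wls, the Wnt carrier to the cell surface, had 1.27, 2.09 and 1.9 RPM in MEKi/L, against 18, 11.6 and 13.1 RPM in S/L, and fell by 3.03 ± 0.28 (adjusted p = 2.7e-06). Both genes of Wnt secretion were thus low in every MEKi/L library, and both were also lower than in GSK3i/L, by 5.55 (adjusted p = 1.1e-05) and 4.21 (adjusted p = 2.8e-07). In 2i/L Porcn stood at 0.53 RPM and Wls at 3.45 RPM.

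Of the de novo DNA methyltransferase genes, Dnmt3a fell, with 62.5, 36.6 and 37 RPM in MEKi/L and 141, 122 and 137 RPM in S/L (-1.60 ± 0.28, adjusted p = 5.9e-04). Dnmt3b had 131, 58.7 and 77 RPM in MEKi/L, against 199.8, 251 and 343 RPM in S/L (-1.62 ± 0.33, adjusted p = 0.0015). Dnmt3l, their catalytically inactive partner, had 209.5, 126 and 127 RPM in MEKi/L, against 208, 277 and 307 RPM in S/L, overlapped between the media and did not pass (-0.80, adjusted p = 0.083), but passed after median centring (-0.98, adjusted p = 0.04), after trimmed mean scaling (adjusted p = 0.042), with 6 libraries only (0.028) and with the length score as a covariate (-1.09, adjusted p = 0.03). Uhrf1, which brings DNMT1 to replicated DNA, had 548, 314 and 334 RPM in MEKi/L, against 122, 159 and 151 RPM in S/L, and rose by 1.43 ± 0.32 (adjusted p = 0.003), or by 1.18 (adjusted p = 0.016) without MEKi/L replicate 1. Dnmt1 had 444, 208 and 239 RPM in MEKi/L, against 113, 155 and 165 RPM in S/L, and its rise of 0.98 ± 0.35 (adjusted p = 0.038) did not pass without MEKi/L replicate 1 (0.18), MEKi/L replicate 3 (0.05), S/L replicate 1 (0.14), S/L replicate 2 (0.065) or S/L replicate 3 (0.055), after median centring (0.071), after trimmed mean scaling (0.063) or without trend and robust variances (0.058). With the length score as a covariate the Dnmt1 change was 0.14 (adjusted p = 0.54). Over the list of 18 genes 8 rose and 3 fell, with a median of 0.44. Only 3 rose without MEKi/L replicate 1 or with the length score as a covariate, 2 without S/L replicate 1, 4 without S/L replicate 2 and 4 after median centring or trimmed mean scaling. With that covariate 5 fell. Against GSK3i/L neither Dnmt3a (0.60, adjusted p = 0.18) nor Uhrf1 (-0.13, adjusted p = 0.85) differed past the threshold, and Dnmt3b was lower by 1.02 (adjusted p = 0.043, or 0.061 with the replicate number as a block).

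Of 18 genes of active demethylation and base excision repair 6 rose and 3 fell, with a median of 0.40. Only 3 rose without MEKi/L replicate 1, without S/L replicate 2 or with the length score as a covariate. Only 2 rose without S/L replicate 1 and after median centring or trimmed mean scaling. Xrcc1, a scaffold of single-strand break repair, rose by 1.12 ± 0.19 (adjusted p = 4.1e-04), with 137, 101 and 116 RPM in MEKi/L and 53, 53 and 55 RPM in S/L. Gadd45a, a stress gene, fell by 1.32 ± 0.21 to 32.1, 42.6 and 42.3 RPM in MEKi/L, against 104, 78.8 and 109 RPM in S/L. Tdg, the glycosylase that removes oxidised methylcytosine, fell by 0.64 ± 0.16 (adjusted p = 0.0063). Tet1 and Tet2, which oxidise methylcytosine, had 611, 222 and 278 RPM and 128, 66.8 and 129 RPM in MEKi/L, against 128, 164 and 142 RPM and 53.4, 48 and 59.4 RPM in S/L. The Tet1 rise of 1.22 ± 0.47 (adjusted p = 0.049) was lost in each fit that left out a library other than MEKi/L replicate 2 (adjusted p = 0.065 to 0.22) and after median centring (0.081), and was 0.07 (adjusted p = 0.83) with the length score as a covariate. Tet2 did not pass (0.95, adjusted p = 0.064) but did without MEKi/L replicate 2 (1.26, adjusted p = 0.026), with 6 libraries only (0.015) and with the replicate block (0.027).

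Methylated germline promoters and imprinted genes are read-outs often set beside these enzymes. Of 24 germline genes tested 7 rose and 4 fell, shares near the 26.1% and 14.7% of all genes, with a median of -0.03 (2 fell without MEKi/L replicate 3 or S/L replicate 1). Tuba3a had 141, 124 and 108 RPM in MEKi/L, against 17.9, 24.4 and 22.5 RPM in S/L (2.53 ± 0.20, adjusted p = 6.4e-07). Dazl, an RNA-binding protein of germ cells, had 31.1, 24.2 and 33.5 RPM in MEKi/L, against 8.88, 7.18 and 6.81 RPM in S/L (1.95 ± 0.33, adjusted p = 4.0e-04). Both were high in all MEKi/L libraries and also exceeded GSK3i/L, by 3.12 (adjusted p = 2.5e-07) and 2.23 (adjusted p = 2.6e-04). Of 38 imprinted genes tested 15 fell and 6 rose, with a median of -0.27, and 3 passed the level filter through one of the media only. Cdkn1c, a maternally expressed inhibitor of cyclin-dependent kinases, had 15.1, 14 and 9.48 RPM in MEKi/L, against 86.2, 94 and 103 RPM in S/L (-2.90 ± 0.24, adjusted p = 1.1e-06). Igf2, a paternally expressed growth factor, had 3.93, 3.89 and 3.13 RPM in MEKi/L, against 32.4, 16.2 and 21.6 RPM in S/L (-2.63 ± 0.25, adjusted p = 3.2e-06). Dio3, which inactivates thyroid hormone and is paternally expressed from the Dlk1 domain, rose by 6.13 ± 0.48 to 36.6, 64.4 and 65.9 RPM in MEKi/L, against 0.99, 0.75 and 0.61 RPM in S/L. Dlk1, in the same domain, had 0.38, 0.29 and 0 RPM in MEKi/L, against 4.02, 3.44 and 7.12 RPM in S/L. Within this domain the libraries thus lay apart in opposite directions for Dio3 and Dlk1. Against GSK3i/L Dio3 was higher by 5.81 (adjusted p = 2.2e-06) and Igf2 lower by 4.56 (adjusted p = 1.3e-07), and Cdkn1c did not pass (0.11, adjusted p = 0.83).

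Of 21 regulators of the G1 phase 8 rose and 5 fell, against 26.1% and 14.7% of all genes, with a median of 0.34. Cdk6, a kinase that D cyclins activate, had 1.9, 1.58 and 2.65 RPM in MEKi/L, against 15.5, 11.7 and 16.6 RPM in S/L (-2.86 ± 0.22, adjusted p = 6.0e-07). Ccnd2, cyclin D2, had 2.35, 1.73 and 1.52 RPM in MEKi/L, against 12.9, 9.37 and 15.9 RPM in S/L (-2.77 ± 0.36, adjusted p = 5.4e-05). Cdkn2a, which encodes the inhibitors of D cyclin kinases and of MDM2, had 40.9, 47.2 and 31.8 RPM in MEKi/L, against 9.24, 8.18 and 8.02 RPM in S/L (2.22 ± 0.19, adjusted p = 1.3e-06). All 3 stood apart between the media. All 3 also differed from GSK3i/L, Cdk6 by -3.57 (adjusted p = 2.5e-07), Ccnd2 by -2.59 (adjusted p = 1.8e-04) and Cdkn2a by 0.87 (adjusted p = 0.0046). Cdkn1a, the p21 gene, rose by 1.14 ± 0.31 to 87, 83.5 and 81 RPM in MEKi/L, against 25.5, 52.7 and 40.6 RPM in S/L (adjusted p = 0.0094, or 0.054 without S/L replicate 1), and was lower than in GSK3i/L by 1.05 (adjusted p = 0.028). Of 20 mitosis genes 5 rose and 1 fell (median 0.32). Only 1 rose without MEKi/L replicate 1 or with the length score as a covariate, 2 without S/L replicate 1 and 3 after median centring.

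Of 24 epithelial junction genes 11 fell and 6 rose, with a median of -0.64. Only 3 rose without MEKi/L replicate 1, without S/L replicate 1 or with the length score as a covariate. Gja1, which encodes connexin 43, had 27.4, 19.1 and 20.1 RPM in MEKi/L, against 152, 150.0 and 182 RPM in S/L, a fall of 2.88 ± 0.17 (adjusted p = 9.4e-08). Gjb1 had 2 reads in all MEKi/L libraries together, against 8.75, 5.21 and 5.57 RPM in S/L. Both connexins were low in every MEKi/L library, and against GSK3i/L Gja1 was lower by 2.67 (adjusted p = 2.5e-07). Esrp1, an epithelial splicing regulator, had 4.44, 4.53 and 2.75 RPM in MEKi/L, against 26.5, 28.5 and 35.9 RPM in S/L (-2.98 ± 0.39). Krt18, a simple-epithelium keratin, fell by 2.28 ± 0.36 (adjusted p = 2.4e-04).

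Of 27 integrin, laminin, nidogen and collagen IV genes 12 rose and 5 fell (against 26.1% and 14.7% of all genes), with a median of 0.82. Of the 27, 2 passed the level filter through one of the media only. Nid1, which links laminin to collagen IV, had 478, 228 and 246 RPM in MEKi/L, against 38.7, 37.9 and 36.2 RPM in S/L (2.99 ± 0.31, adjusted p = 8.8e-06). Col4a1 had 196, 92.1 and 88.9 RPM in MEKi/L, against 18.7, 23.6 and 22.7 RPM in S/L (2.44 ± 0.36, adjusted p = 1.4e-04). MEKi/L replicate 1 was highest for both, and without it the changes were 2.66 (adjusted p = 2.6e-05) and 2.07 (adjusted p = 5.9e-04). Itgb3 rose by 2.78 ± 0.39, with 10.9, 7.63 and 5.97 RPM in MEKi/L and 1.52, 1.13 and 0.89 RPM in S/L. Itga3, a laminin-binding integrin chain, fell by 2.82 ± 0.30 to 12.2, 8.92 and 7.11 RPM in MEKi/L, against 70.3, 49 and 78.8 RPM in S/L. Nid1, Col4a1 and Itgb3 were also higher than in GSK3i/L, by 1.93 (adjusted p = 5.8e-04), 1.79 (0.0029) and 2.22 (9.9e-04), while Itga3 did not pass (0.80, adjusted p = 0.082).

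Of 25 genes of cholesterol synthesis and uptake 13 rose and 1 fell (0 without MEKi/L replicate 1, MEKi/L replicate 3 or S/L replicate 1), with a median of 0.62. Hmgcs1, an early enzyme of the mevalonate route, had 469, 369 and 324 RPM in MEKi/L, against 121, 167 and 177 RPM in S/L (1.32 ± 0.22, adjusted p = 3.8e-04). Of 20 genes of fatty acid synthesis and desaturation 13 rose and 1 fell, with a median of 0.90. The number that fell was 0 without MEKi/L replicate 3, S/L replicate 1 or S/L replicate 3. It was 2 without MEKi/L replicate 2 or under any of the 3 rescalings, and 3 with the length score as a covariate. Scd1, a stearoyl-CoA desaturase, had 367, 228 and 226 RPM in MEKi/L, against 29, 24.9 and 26.4 RPM in S/L (3.32 ± 0.28, adjusted p = 1.6e-06). Scd2, its relative, rose by 1.99 ± 0.30 to 826 ± 271 RPM in MEKi/L, against 202 ± 20 RPM in S/L, and Elovl7, an elongase, rose by 2.07 ± 0.19. The libraries of the media did not overlap for these genes. Against GSK3i/L, also serum-free, none of Hmgcs1 (0.18, adjusted p = 0.66), Scd1 (0.18, 0.75), Scd2 (-0.43, 0.39) or Elovl7 (0.03, 0.94) passed. Fdft1, the squalene synthase gene, did, and was higher in MEKi/L by 0.67 (adjusted p = 0.0082), after a rise of 1.45 over S/L.

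Among genes of betaine metabolism, Bhmt, which makes methionine from homocysteine with betaine, had 10.9, 14.5 and 11.2 RPM in MEKi/L, against 0.15, 0.31 and 0.094 RPM in S/L. Its neighbour Bhmt2 had 7.68, 10.9 and 9.29 RPM in MEKi/L, against 0.24, 0.089 and 0.33 RPM in S/L. Dmgdh, which breaks down the dimethylglycine that Bhmt leaves, had 18.3, 18.1 and 18.5 RPM in MEKi/L, against 0.55, 0.92 and 0.52 RPM in S/L. All 3 lie on chromosome 13 and were near or below the detection limit in S/L. They rose by 6.21 ± 0.44, 5.58 ± 0.39 and 4.83 ± 0.21. Against GSK3i/L, where Bhmt stood at 0.091 RPM, they were higher by 6.76 (adjusted p = 2.7e-07), 1.49 (0.017) and 1.15 (0.0014). Over the 28 genes of betaine, methionine and one-carbon metabolism 12 rose and 2 fell, with a median of 0.43. Of the 28, 3 passed the level filter through one of the media only. Bhmt and Bhmt2 were under 0.5 RPM in every S/L library, so the filter largely fixed their direction. Phgdh, the first enzyme of serine synthesis, was among those that fell, with 71.1, 111 and 66.6 RPM in MEKi/L and 149, 169 and 197 RPM in S/L (-1.08 ± 0.25, adjusted p = 0.0037).

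**Figure D5:**
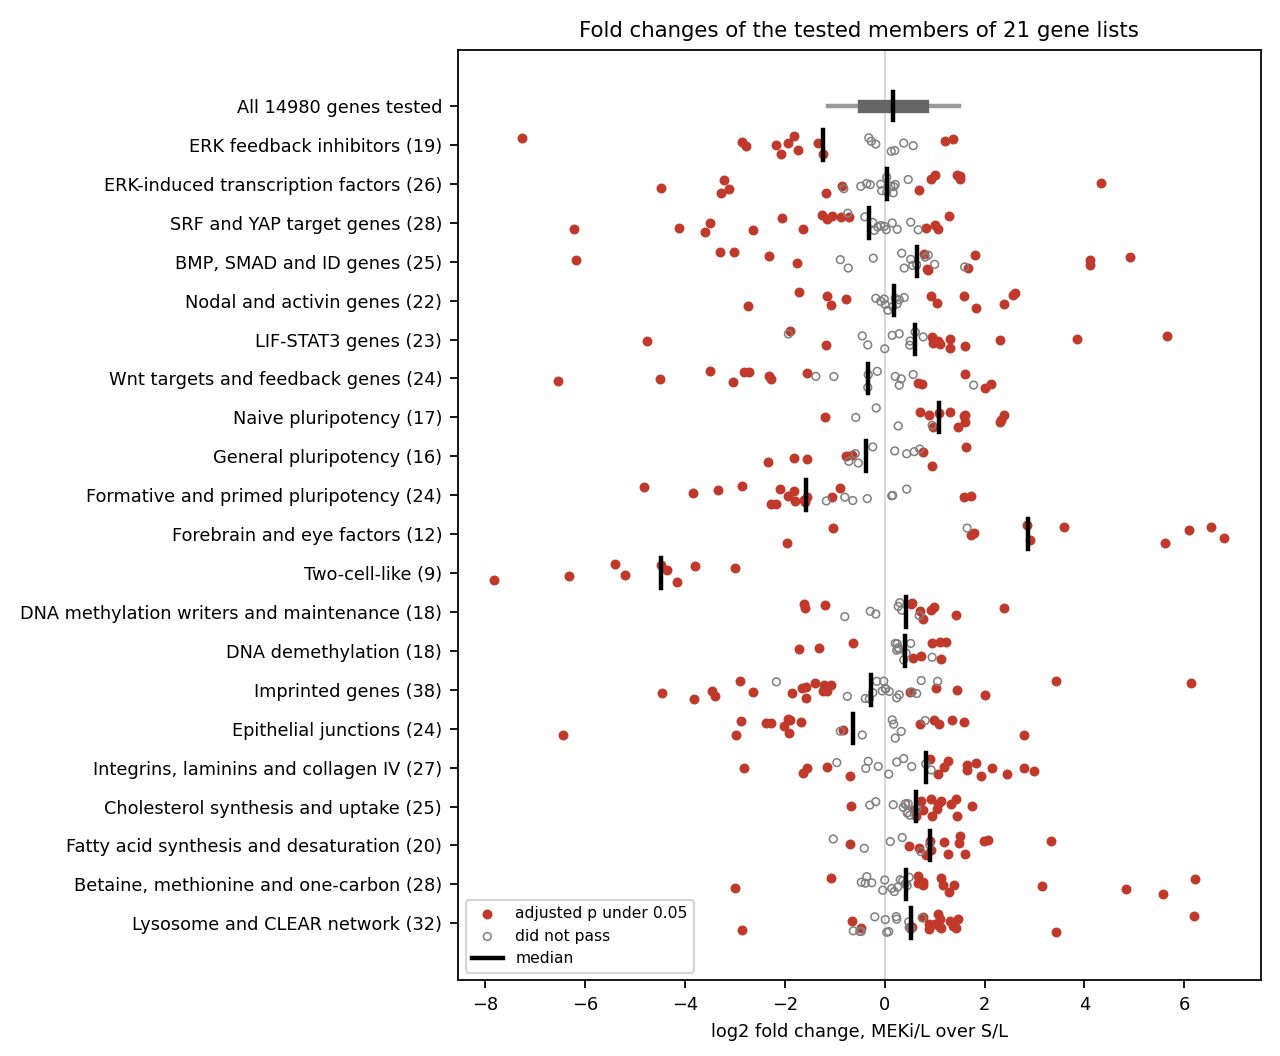
Log2 fold change of MEKi/L over S/L for each tested member of 21 gene lists (number tested in brackets), in red where adjusted p was under 0.05, with vertical bars at list medians. The top row gives the median (0.17) and the spread of all 14980 genes. Formative genes have a median of -1.58, ERK feedback genes -1.23 and naive genes 1.09. Most forebrain and two-cell-like members passed the level filter through one medium only.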

How the data were processed

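Poly(A) RNA of 14 libraries was sequenced as single-end reads with a strand-specific kit, per the labels' protocols. Trim Galore 0.6.5, HISAT2, Bismark 0.22.3 and the mouse build GRCm38 are named in the submitters' processing notes, and the counting options and gene annotation were not stated in the sources used here. The authors deposited values as log2 RPM for 25965 genes. In 8 columns, MEKi/L among them, at least 99.98% of values were whole multiples of 1 read (tolerance 0.02). The remaining 6, which are the 8-day GSK3i/L and S/L libraries, followed 1 shared distribution of values, with sorted values within 0.079 of each other above 2 RPM, so no test on counts was made between groups and S/L depth was approximated from genes near 100 reads. Detection limits of 3 reads cover counting error only. The 24 bisulfite samples were not used here.

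Genes reaching 0.5 RPM in 3 or more of the 14 libraries were fitted with limma 3.58.1 (trend and robust variances, R 4.3.3) on the deposited log2 values, by group alone and over all 14 libraries, and p-values were adjusted over all genes by the Benjamini-Hochberg method. Counts over all genes with a fold used at least 2. The members and lists (48 lists, 1125 entries, 1021 tested) were chosen with earlier results of these data known. Named genes were the 12 largest rises and 12 largest falls with a mean of at least 20 RPM and no overlap, the 6 largest of each by RPM, up to 4 called members of each list, and all members of the ERK feedback, DNA methylation, DNA demethylation and ID sets. Exceptions are marked where they appear. Deviations of same-numbered MEKi/L and GSK3i/L libraries correlated at 0.67, 0.12 and 0.40. Among unlike-numbered pairs MEKi/L 2 with GSK3i/L 3 reached 0.38, and the others lay between -0.59 and -0.01. Replicate 1 also had the highest long-minus-short score in both media (0.14 and -0.27), so it is uncertain whether the numbers pair these samples. The fit with the replicate number as a block is given where it changed a call. Alternatives were 3 rescalings (median centring, weighted trimmed mean scaling and quantile normalization), no filter and a filter at 1 RPM, log2(RPM + 0.5), 6 libraries only, no trend, the replicate block, a covariate for the long-minus-short score, and leaving out each library. A fit of the 8-day libraries without the block was chosen after seeing the data. The fit was tested on simulated data. Promoter sequences are from RefSeq (GRCm38.p6), matched by symbol. Results of some genes are not reported here.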

Additional observations from a re-analysis of the deposited data

How the results depend on the processing

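The number of genes at least 2-fold higher than in S/L ranged from 1857 to 2468 when single libraries were left out, and the number lower from 1090 to 1655. Against GSK3i/L these ranges were 1096 to 1406 and 477 to 659. Other alternatives gave 2472 higher and 1666 lower with no filter, 2025 and 1249 with a filter at 1 RPM, 2031 and 1336 with log2(RPM + 0.5), 2337 and 1527 with 6 libraries only, 2371 and 1415 without trend and robust variances, 2344 and 1416 with the 8-day libraries, and 1694 and 1037 with a covariate for the long-minus-short score. The rescalings, given with the main counts, moved the balance of higher against lower genes. No called direction reversed among the 255 named genes under the alternatives run: 204 kept their side of the threshold in each and 51 did not, mostly on leaving out MEKi/L replicate 1 or S/L replicate 1 or with the score as a covariate. The cause was not tested.

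Same-numbered MEKi/L and S/L libraries did not deviate together (correlations of -0.3, 0.05 and -0.12), so the numbers were not taken to pair them. With the replicate block the counts were 2376 higher and 1479 lower than in S/L, and 1309 higher and 616 lower than in GSK3i/L, against 1295 and 624 without it. Depth limits statements on genes near 3 reads per library, such as Dlk1, Cubn and Dusp2.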

Other observations

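Among genes not yet described, chromatin regulators and lysosomal genes held further large changes. Of 27 Polycomb genes 11 rose and 3 fell (1 without S/L replicate 3), with a median log2 fold change of 0.30. Bmi1, a subunit of Polycomb repressive complex 1, had 27.9, 28.6 and 30 RPM in MEKi/L, against 5.95, 5.11 and 3.71 RPM in S/L, a rise of 2.58 ± 0.20 (adjusted p = 5.8e-07). Phf19, a partner of Polycomb repressive complex 2, had 31.4, 31.5 and 23.1 RPM in MEKi/L, against 8.62, 6.15 and 8.51 RPM in S/L. The libraries did not overlap for Bmi1 or Phf19, and both were also higher than in GSK3i/L, by 1.41 (adjusted p = 1.7e-04) and 2.44 (adjusted p = 2.4e-05). Of 16 genes of H3K9 methylation 6 rose and 0 fell (2 fell under each of the 3 rescalings and 1 with the length score as a covariate). Kdm3a, an H3K9 demethylase, rose by 0.96 ± 0.23 and was higher than in GSK3i/L by 1.52 (adjusted p = 3.2e-04). Of 32 lysosome genes 16 rose and 3 fell (1 without S/L replicate 2 and 5 under each of the 3 rescalings), with a median of 0.53. Gpnmb, a lysosomal glycoprotein, had 15, 15.1 and 19.8 RPM in MEKi/L, against 0.34, 0.21 and 0.15 RPM in S/L, a rise of 6.20 ± 0.30 (adjusted p = 3.1e-08). Its S/L values lay at or near the detection limit. All were under 0.5 RPM, so of these media Gpnmb passed the level filter through MEKi/L only, and the filter largely fixed its direction. Mitf, a transcription factor of lysosomal and melanocyte genes, had 78.2, 46.3 and 55.4 RPM in MEKi/L, against 6.35, 4.64 and 5.45 RPM in S/L, a rise of 3.43 ± 0.27 (adjusted p = 6.9e-07). Both stood apart between the media in every library and were higher than in GSK3i/L, by 2.61 (adjusted p = 3.9e-05) and 1.19 (adjusted p = 0.0061).

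Of 18 interferon-response genes 6 rose and 5 fell, with a median of -0.41, and 2 passed the level filter through one of the media only. Oas1a, an antiviral enzyme, had 13.3, 20.1 and 18.1 RPM in MEKi/L, against 4.29, 2.78 and 2.54 RPM in S/L (2.44 ± 0.31, adjusted p = 4.5e-05). Bst2, which tethers virus particles to the cell, had 21.6, 36.8 and 28.5 RPM in MEKi/L, against 92, 84.9 and 101 RPM in S/L (-1.71 ± 0.25, adjusted p = 1.3e-04). These antiviral genes thus lay on opposite sides. Pdk1, a kinase that holds back pyruvate oxidation, had 65.2, 45.2 and 42.7 RPM in MEKi/L, against 218, 183 and 168 RPM in S/L, and fell by 1.91 ± 0.23 (adjusted p = 2.5e-05). The metallothionein genes Mt1 and Mt2 rose by 1.51 ± 0.18 and 1.71 ± 0.20, and Sepp1, which carries selenium in plasma, fell by 4.00 ± 0.54 to 2.47, 5.32 and 5.97 RPM in MEKi/L, against 115, 45.3 and 61.8 RPM in S/L.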
